A study of Mus musculus with 6 samples.

Results

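The 48 genes described here encode proteins that fill, dock, fuse and retrieve synaptic vesicles in the presynaptic terminal. They were chosen by name, as the rows of the deposited table whose gene symbol is on a list of synaptic vesicle proteins, SNAREs, active zone proteins, vesicular glutamate transporters and endocytosis proteins, and all 48 were found among 55421 genes. RNA-seq was performed on hippocampal tissue of wild-type male C57BL/6N mice aged 8 to 10 weeks. The 3 mice of the SP group received 100 µL of substance P (SP, a tachykinin neuropeptide) at 10 µM under the skin for 14 consecutive days, and the 3 mice of the vehicle group received the same volume of saline. Each mouse gave 1 library, and the replicate numbers 1 to 3 in the labels, which the labels call a batch, each hold 1 mouse of either group.

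Neurotransmitter release begins when vesicular transporters load a vesicle with transmitter. Rab3 GTPases and the active zone scaffold bring the vesicle to the release site, where Munc13 proteins prime it, and a calcium sensor of the synaptotagmin family then triggers fusion by the SNARE proteins. Dynamin, amphiphysin, synaptojanin and endophilin retrieve the membrane. Most of these proteins come as small families whose members differ between neuron types, so a bulk hippocampal sample mixes the versions used by pyramidal cells, granule cells and interneurons. In such a sample, fewer cells of one type and less RNA per cell cannot be told apart.

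The libraries held between 22349964 and 27605935 estimated counts, and every one of the 48 genes had at least 89 counts in each library. The 6 markers of dentate granule cells, 5 of CA1 and 6 of CA3 were detected in each library. Some libraries stood apart in 13 marker lists. The summed levels of 8 choroid plexus markers were 175 CPM in library SP 1 and 2817 to 4766 CPM in the other libraries, and 8 pineal markers summed to 81.4 CPM in library SP 2 against at most 3.07 CPM elsewhere, with 1 of the 8 detected in every library. CPM are counts relative to the TMM-normalized library size, the scale of all levels given here. Besides the pineal list, 3 lists did not overlap between the groups. The 11 neocortical and subicular neuron markers summed to 350 to 361 CPM in the vehicle libraries and 244 to 324 CPM in those labelled SP. The 6 CA3 markers summed to 606 to 636 CPM and 678 to 737 CPM, and the 10 oligodendrocyte and myelin markers to 2253 to 2584 CPM and 2607 to 3754 CPM. The groups overlapped in the other 9 lists. No gene in the table shows which mice received SP, so directions rest on the labels as given. The sources for this study leave the sign of the contrast in doubt, and every direction given here, those of the marker lists included, would turn if the group labels were exchanged.

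**Figure D1:**
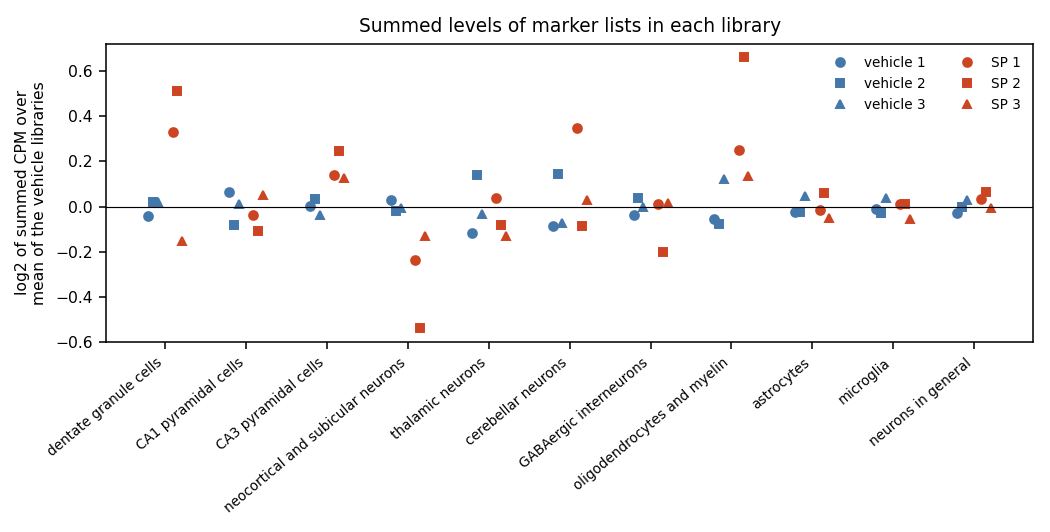
Summed CPM of 11 marker lists in each of the 6 libraries, on the y axis as the log2 ratio to the mean of the 3 vehicle libraries (the choroid plexus and pineal lists, which lie far outside this scale in libraries SP 1 and SP 2, are left out). Blue marks are vehicle and red marks SP, with replicates 1, 2 and 3 as circle, square and triangle. Neocortical and subicular markers lie lower, and CA3 and myelin markers higher, in all 3 libraries labelled SP, with library SP 2 farthest out.

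The 7 most abundant genes per kilobase of exon, named below, had log2 fold changes from -0.075 for Vamp2 to 0.15 for Cplx2. Of these, Slc17a7, Cplx2, Snap25 and Dnm1 were higher in every library labelled SP than in any vehicle library. The lowest unadjusted p-values belonged to Slc17a6, Rab3c, Syt2 and Rab3b, whose means were lower in the libraries labelled SP, but no gene passed the test over all genes. By edgeR's quasi-likelihood test with the replicate number as a block, 0 of the 48 genes passed FDR < 0.1 and |log2FC| > 0.3, where 0.0293% of all 17069 tested genes did. Their FDR values ran from 0.308 to 0.982. In this fit an unadjusted p under 0.05 was found for 5 of them, or 10.4%, near the 10.1% of all tested genes. Of these, 4 were lower in the libraries labelled SP (8.33% of the genes, with 5.59% over all genes) and 1 was higher (2.08%, with 4.48% over all genes). Without the block there were 11 such genes, 4 of the 5 among them, and 11.9% of all tested genes. With DESeq2 and the block, 5 of the 48 genes were lower and 3 higher at such a p, where 4.13% of all tested genes had one. In every alternative fit but that without replicate 2, the share of the 48 genes lay above that of all tested genes.

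The log2 fold change of libraries labelled SP relative to vehicle was below 0 for 20 genes (41.7%, with 49.5% over all tested genes) and above 0 for 28. The median was 0.026, beside 0.0015 over all tested genes, and without replicate 2 it was -0.0071. The values spanned -0.48 for Slc17a6 to 0.22 for Doc2b, and 40 of the 48 genes (83.3%) lay within 0.2 of zero, as did 75.9% of all tested genes. For 42 of the 48 genes the 95% interval of the log2 fold change, taken gene by gene, lay within 0.5 on either side of zero. The median standard error (SE) was 0.0660 for these genes and 0.0906 for all tested genes.

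**Figure D2:**
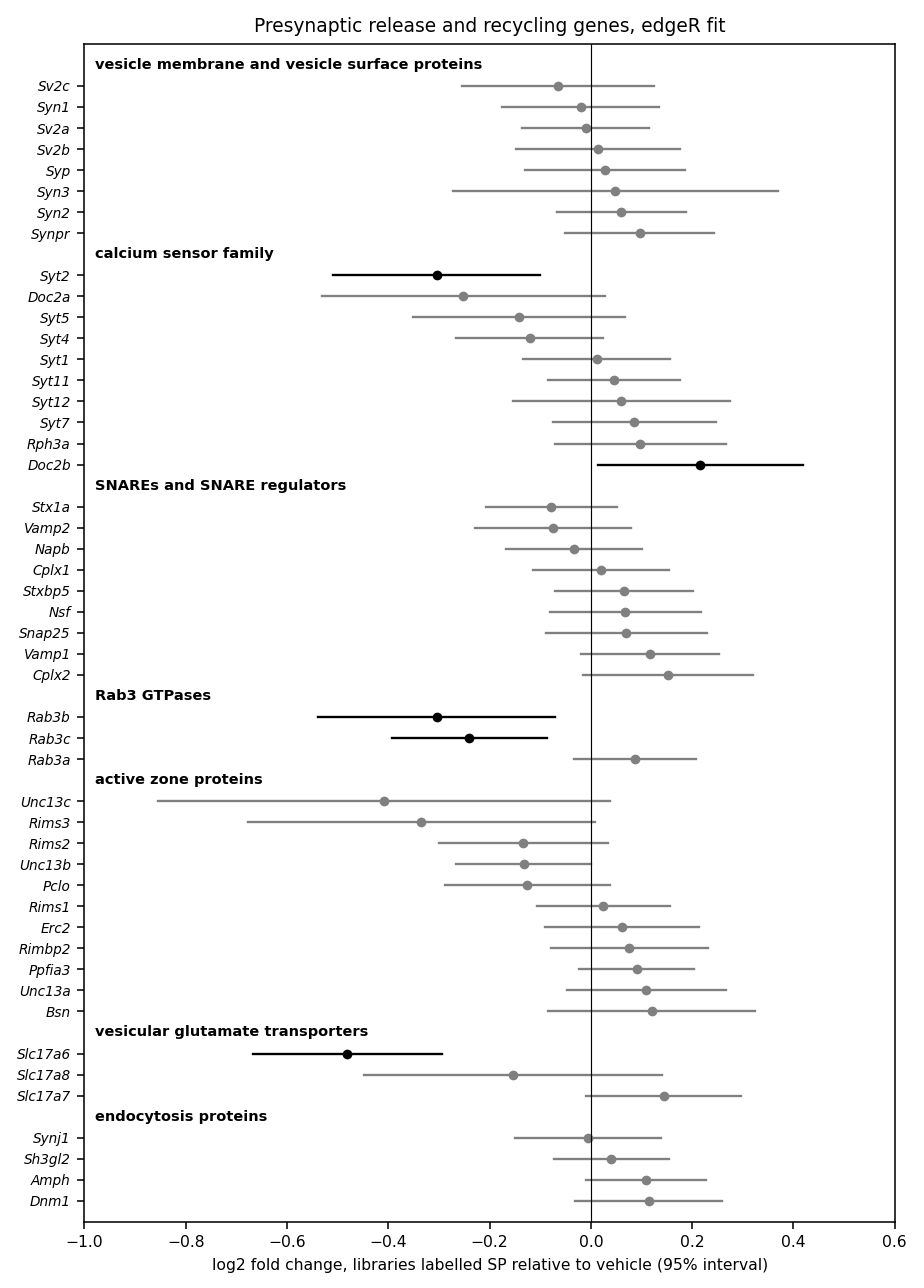
Log2 fold changes of the 48 genes in libraries labelled SP relative to vehicle (x axis) with 95% intervals from edgeR's quasi-likelihood fit, grouped by role. Black marks an unadjusted p under 0.05 and grey the rest. Slc17a6, Rab3b, Syt2 and Rab3c lie left of zero and Doc2b right of it, and the intervals of the other 43 genes include zero.

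In 15 of the 48 genes the libraries of the 2 groups did not overlap, with 18.2% over all tested genes. The libraries labelled SP were higher in 11 of them (22.9% of the 48 genes, with 9.19% over all tested genes) and lower in 4 (8.33%, with 9.03% over all genes). The 11 genes were Syn2, Syt11, Vamp1, Snap25, Cplx2, Nsf, Rab3a, Ppfia3, Slc17a7, Dnm1 and Amph, and their log2 fold changes were small, from 0.046 to 0.15. The 4 genes were Syt2, Stx1a, Rab3b and Unc13b. With relative log expression scaling the counts were 9 higher and 6 lower, so that differences of this size depended in part on the scaling. Library SP 2 was the lowest or the highest of the 6 libraries in 32 of the 48 genes (66.7%), and in 46.2% of all tested genes.

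Levels of different genes were compared as CPM per kilobase of annotated exon, the summed length of a gene's exons. On this scale the 48 genes in the vehicle libraries spanned 0.571 for Syn3 to 249 for Vamp2. The 7 genes over 200 CPM per kilobase were Vamp2, Slc17a7, Cplx2, Syp, Snap25, Cplx1 and Dnm1. They cover the vesicle SNARE synaptobrevin 2, the transporter VGLUT1, both complexins, the vesicle protein synaptophysin, the plasma membrane SNARE SNAP-25 and the fission enzyme dynamin 1. Their spacing is narrower than the uncertainty in length, because with the longest transcript in place of all exons Vamp2, Slc17a7 and Syp were at 431, 425 and 419 CPM per kilobase and Cplx1 at 223. The 7 genes under 5 CPM per kilobase were Syn3, Slc17a8, Unc13c, Sv2c, Syt2, Slc17a6 and Unc13b.

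**Figure D3:**
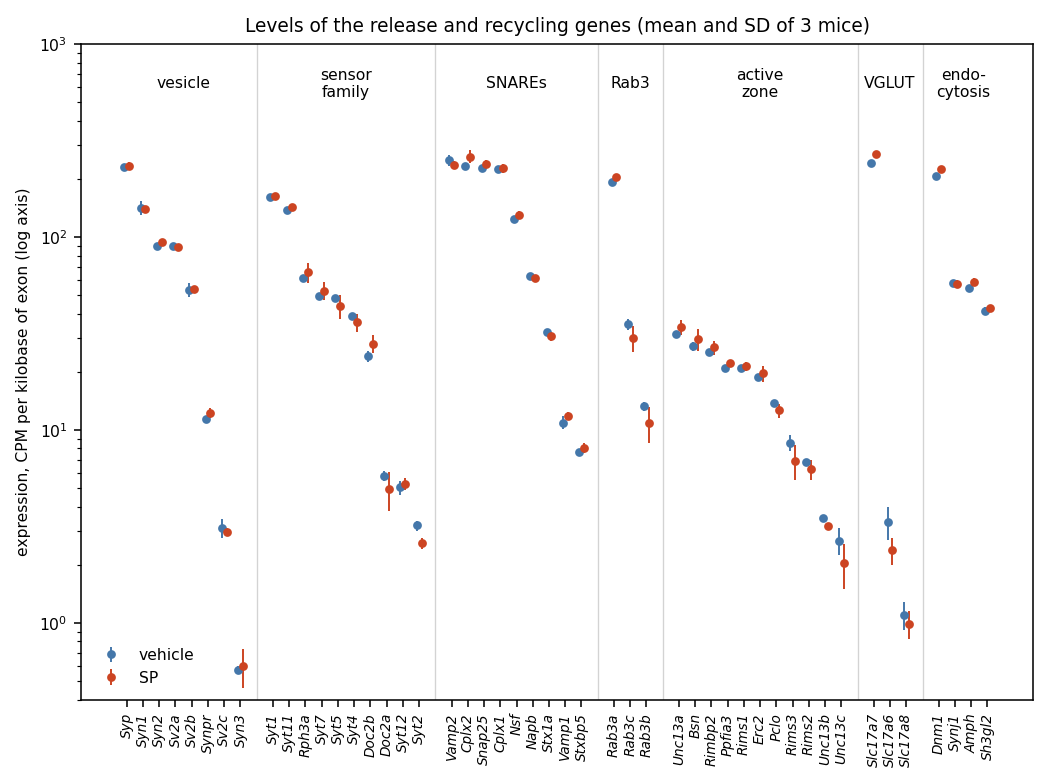
Expression of the 48 genes as CPM per kilobase of exon (log axis), ordered within each role by the vehicle level. Points are means and bars SD of 3 mice, blue for vehicle and red for SP. The levels run from 0.571 for Syn3 to 249 for Vamp2 in the vehicle libraries, and the groups lie close together except for low genes such as Slc17a6 and Unc13c.

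The vesicular glutamate transporters pump glutamate into vesicles. VGLUT1, encoded by Slc17a7, is the version of cortical and hippocampal principal cells, VGLUT2, encoded by Slc17a6, is best known from subcortical neurons such as those of the thalamus, and VGLUT3, encoded by Slc17a8, is found in scattered interneurons and in serotonergic and cholinergic neurons. Slc17a7 made up 97.8% to 98.5% of the summed level per kilobase of the 3 transporters in the vehicle libraries and 98.6% to 99.0% in those labelled SP.

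Slc17a6 (ENSMUSG00000030500, chromosome 7 of GRCm38 from 51622006 to 51671119, plus strand) had 15.08, 21.9 and 16.9 CPM in vehicle libraries 1 to 3 and 11.3, 15.15 and 12.0 CPM in SP libraries 1 to 3. Each SP value was below that of the same replicate number, but the groups touched, since SP 2 was slightly above vehicle 1. The mean was 18.0 ± 3.53 CPM (SD, n = 3 mice) for vehicle and 12.8 ± 2.03 CPM (SD, n = 3 mice) for SP. This gave a log2 fold change of -0.48 (SE 0.0796, 95% interval -0.67 to -0.29), with an unadjusted p of 0.000426 and an FDR of 0.308 from edgeR's quasi-likelihood test. It was the lowest p of the 48 genes and did not pass the threshold over all genes. Slc17a6 passed both thresholds in 2 of 12 alternative fits, with no filter on low counts (FDR 0.0122) and with DESeq2 without the block (FDR 0.0996). Without the block, edgeR gave an unadjusted p of 0.0109 (FDR 0.319), and DESeq2 with the block gave 0.00388 (FDR 0.334). The highest FDR of the 12 fits was 0.579. In all 12 the log2 fold change of Slc17a6 lay between -0.51 and -0.42. Of the 11 neocortical and subicular markers 10 had a log2 fold change below 0. Their sum was lowest in library SP 2, and Slc17a6 was lowest in SP 1. The 10 thalamic markers, of which 8 were above 3 counts in every library and 7 had a log2 fold change below 0, summed to 183 to 219 CPM in the vehicle libraries and 182 to 204 CPM in those labelled SP. The part of other cell types in the Slc17a6 difference was not tested.

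Slc17a7 (ENSMUSG00000070570, chromosome 7 from 45163949 to 45176142, plus strand) was measured at 1329, 1274 and 1321 CPM in the vehicle libraries and 1490, 1463 and 1383 CPM in those labelled SP. All 3 SP libraries were above all vehicle libraries. With a log2 fold change of 0.14 and SE of 0.0651 it did not pass the threshold (FDR 0.513). Its unadjusted p was under 0.05 in 5 of 12 alternative fits. The CA3 marker list was higher in the same 3 libraries, as given above. The 6 dentate granule cell markers summed to 233 to 244 CPM in vehicle and 302, 343 and 216 CPM in SP 1, 2 and 3. All 6 had a log2 fold change above 0, while of the 5 CA1 markers 3 were below 0 and 2 above. The part of these cells in the Slc17a7 difference was not tested. Slc17a8, with a log2 fold change of -0.15 (FDR 0.718), had 4.21 to 5.77 CPM in the vehicle libraries and 3.79 to 5.12 CPM in those labelled SP.

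Rab3 proteins are small GTPases on the vesicle surface that bind RIM at the active zone. Rab3a was the most abundant, with 79.4% to 81.0% of the summed level per kilobase of the 3 genes in the vehicle libraries and 81.7% to 85.8% in those labelled SP. Rab3a (ENSMUSG00000031840) was at 436, 426 and 428 CPM in the vehicle libraries and 463, 447 and 460 CPM in the SP libraries. The groups did not overlap, but the difference was small (log2 fold change 0.086, FDR 0.612).

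Rab3c (ENSMUSG00000021700, chromosome 13 from 110054187 to 110280996, minus strand) had 446, 390 and 434 CPM in the vehicle libraries and 375, 301 and 406 CPM in those labelled SP. Library SP 2 was the lowest, and SP 3 lay within the vehicle range. Its fitted difference was -0.24 on the log2 scale (SE 0.0656, 95% interval -0.39 to -0.087, FDR 0.369), and -0.17 without replicate 2. Rab3b (ENSMUSG00000003411, chromosome 4 from 108879063 to 108943324, plus strand) had 49.0, 44.4 and 46.5 CPM in the vehicle libraries and 41.7, 29.1 and 43.9 CPM in those labelled SP. The groups did not overlap, and SP 2 was again the lowest. For Rab3b the fitted difference was -0.30 on the log2 scale (SE 0.0996, FDR 0.417) and -0.16 without replicate 2. Rab3c was lower in 3 of 3 replicate pairs, which for Rab3b already follows from the lack of overlap. Rab3b passed the call thresholds in 1 of 12 alternative fits, with no filter on low counts (FDR 0.0920), and Rab3c passed in none. Library SP 2 is also the library with the lowest sum of neocortical and subicular markers, and the part of these cells was not tested.

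The 10 genes of the calcium sensor family encode synaptotagmins, Doc2 proteins and rabphilin, and Syt1 and Syt11 were the most abundant per kilobase. Some relatives, synaptotagmin 11 among them, are not known to bind calcium. Synaptotagmin 1 is the fast sensor of most forebrain synapses, and synaptotagmin 2 is its close relative, known in the forebrain mainly from terminals of fast-spiking interneurons. Syt1 (ENSMUSG00000035864) was at 1341, 1346 and 1336 CPM in the vehicle libraries and 1331, 1386 and 1339 CPM in the SP libraries. A log2 fold change of 0.011 with a 95% interval of -0.13 to 0.16 lay within its spread.

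Syt2 (ENSMUSG00000026452, chromosome 1 from 134646677 to 134762593, plus strand) had 24.8, 25.6 and 22.7 CPM in the vehicle libraries and 19.9, 18.4 and 21.0 CPM in those labelled SP. The groups did not overlap, and the fitted log2 difference was -0.30 (SE 0.0872, 95% interval -0.51 to -0.10, FDR 0.385). It was -0.22 without replicate 2, and its unadjusted p was under 0.05 in all 12 alternative fits. The 13 markers of GABAergic interneurons, all detected in every library, summed to 1550 to 1634 CPM in the vehicle libraries and to 1604, 1382 and 1609 CPM in SP 1, 2 and 3. Of these markers 11 had a log2 fold change below 0, and their part in the Syt2 value was not tested.

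Doc2b (ENSMUSG00000020848, chromosome 11 from 75768966 to 75796049, minus strand) encodes a sensor of high calcium affinity that is linked to spontaneous release. It had 105, 98.1 and 111 CPM in the vehicle libraries and 133, 126 and 107 CPM in those labelled SP. SP 3 lay within the vehicle range, and the gene was higher in 2 of 3 replicate pairs. The fitted log2 difference was 0.22 (SE 0.0862, FDR 0.465), and 0.15, 0.14 and 0.35 without replicates 1, 2 and 3. Of the other genes of this family, Doc2a, Syt4 and Syt5 had log2 fold changes of -0.25, -0.12 and -0.14, with library SP 2 the lowest in each. Syt7, Syt11, Syt12 and the Rab3 effector rabphilin, Rph3a, had values from 0.046 to 0.097.

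**Figure D4:**
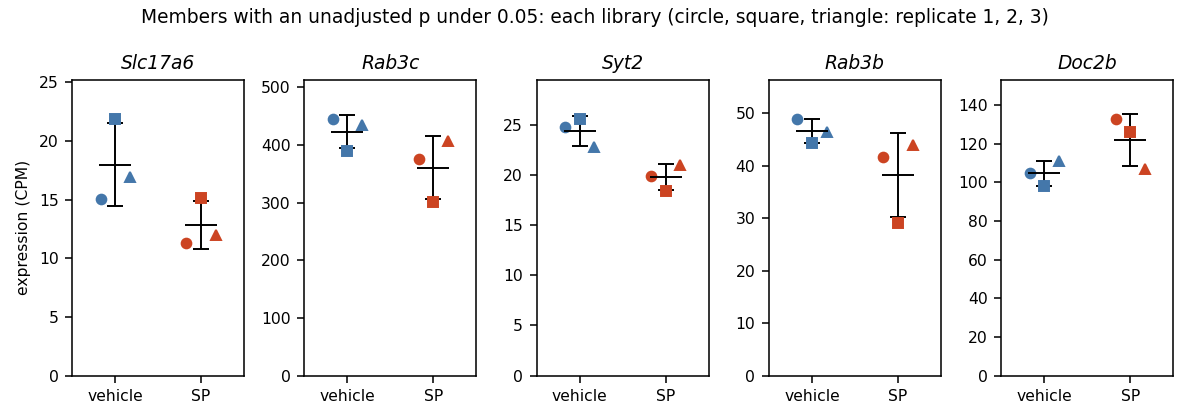
CPM in each library for the 5 genes with an unadjusted p under 0.05 (y axes start at 0). Circle, square and triangle are replicates 1, 2 and 3, blue for vehicle and red for SP, with the mean and SD of 3 mice in black. The groups do not overlap in Syt2 and Rab3b, and library SP 2 (red square) is the lowest in Rab3c, Syt2 and Rab3b.

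The region just before the annotated start of a gene holds much of its core promoter. The 250 bases before the start are shown for Slc17a6, Rab3b, Rab3c and Syt2, the lower genes, and for Slc17a7, the abundant relative of Slc17a6, so that their makeup can be compared. They come from RefSeq (GRCm38.p6), whose starts can lie apart from the gene bounds given above, and which had an entry for 38 of the 48 genes and none for Doc2b. Capitals mark letters of the motifs searched on both strands. These were the cAMP response element TGACGTCA, its shorter form TGACG, which lies within the full element, the GC box GGGCGG, the TATA motif TATAAA and the E-box CACGTG.
Slc17a6 (chr7:51621580-51621829, plus strand): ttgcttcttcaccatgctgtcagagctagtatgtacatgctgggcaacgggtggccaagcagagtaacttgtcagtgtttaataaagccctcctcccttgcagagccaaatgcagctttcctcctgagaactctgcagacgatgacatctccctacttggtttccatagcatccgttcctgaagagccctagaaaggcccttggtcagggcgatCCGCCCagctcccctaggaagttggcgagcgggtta
Slc17a7 (chr7:45163671-45163920, plus strand): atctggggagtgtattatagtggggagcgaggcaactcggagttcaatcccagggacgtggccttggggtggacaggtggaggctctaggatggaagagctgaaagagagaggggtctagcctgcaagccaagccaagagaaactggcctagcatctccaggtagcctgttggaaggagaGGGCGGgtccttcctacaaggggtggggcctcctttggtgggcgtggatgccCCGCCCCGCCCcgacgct
Rab3b (chr4:108878820-108879069, plus strand): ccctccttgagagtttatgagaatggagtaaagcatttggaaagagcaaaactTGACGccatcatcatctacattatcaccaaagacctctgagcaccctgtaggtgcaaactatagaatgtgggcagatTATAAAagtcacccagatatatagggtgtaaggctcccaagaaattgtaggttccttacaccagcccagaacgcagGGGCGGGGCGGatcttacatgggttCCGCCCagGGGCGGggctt
Rab3c (chr13:110280207-110280456, minus strand): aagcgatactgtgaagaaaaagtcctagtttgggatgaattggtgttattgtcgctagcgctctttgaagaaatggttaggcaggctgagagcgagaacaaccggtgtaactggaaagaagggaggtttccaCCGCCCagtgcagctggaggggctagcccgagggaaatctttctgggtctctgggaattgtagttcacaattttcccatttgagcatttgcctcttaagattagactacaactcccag
Syt2 (chr1:134646362-134646611, plus strand): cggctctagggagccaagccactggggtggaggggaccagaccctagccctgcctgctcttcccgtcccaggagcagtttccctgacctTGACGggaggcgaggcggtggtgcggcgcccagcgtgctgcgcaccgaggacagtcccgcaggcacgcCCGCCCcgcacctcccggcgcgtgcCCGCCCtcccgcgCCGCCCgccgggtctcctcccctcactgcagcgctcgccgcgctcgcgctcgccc

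The window of Syt2 had 30 CG pairs and a GC content of 76.0%, while those of Slc17a6, Slc17a7, Rab3b and Rab3c had 7, 9, 6 and 7 CG pairs. The median of all 32851 listed windows was 6 CG pairs. A GC box was present in all 5 windows, 4 times in that of Rab3b, in 25 of the 38 windows (65.8%) and in 32.7% of all windows. The shorter response element was in the windows of Rab3b and Syt2, in 8 of the 38 (21.1%) and in 17.8% of all windows. The full element was in 2 of the 38 windows, those of Sh3gl2 and Syn1, and in 1.55% of all windows. The TATA motif was in the windows of Rab3b and Sv2b and in 12.4% of all windows. The E-box was in those of Nsf and Unc13b and in 6.02% of all windows. These are matches of letters only, and binding was not measured.

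The SNAREs and their regulators carry out fusion. Synaptobrevin 2 (Vamp2) on the vesicle joins SNAP-25 and syntaxin 1A (Stx1a) on the plasma membrane, complexins clamp and assist the complex, tomosyn (Stxbp5) restrains its assembly, and NSF with its adaptor Napb takes it apart. Unadjusted p-values of the 9 genes were above 0.05, and the log2 fold changes lay between -0.079 and 0.15. Snap25 had the highest CPM of the 48 genes and was at 1545, 1516 and 1557 CPM in the vehicle libraries and 1583, 1700 and 1568 CPM in those labelled SP (FDR 0.773). Vamp2 (ENSMUSG00000020894), at 920, 909 and 1019 CPM in vehicle and 944, 853 and 906 CPM in SP libraries, had overlapping groups. Vamp1 was at 101, 115 and 116 CPM in the vehicle libraries and 117, 127 and 116 CPM in those labelled SP, with an FDR of 0.550. Cplx2 (ENSMUSG00000025867) was at 1132, 1152 and 1176 CPM in vehicle and 1284, 1383 and 1185 CPM in SP libraries, with no overlap, although SP 3 was close to vehicle 3. Its fitted log2 difference was 0.15 (SE 0.0720, FDR 0.528), and 0.096 without replicate 2. Its unadjusted p was under 0.05 in 6 of 12 alternative fits. Cplx1 was at 488, 487 and 492 CPM in vehicle and 526, 472 and 491 CPM in SP libraries.

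The active zone proteins form the scaffold at which vesicles are docked and primed. The RIM proteins (Rims1, Rims2, Rims3) include forms that bind Rab3. RIM-binding protein (Rimbp2) tethers calcium channels, and Munc13 proteins (Unc13a, Unc13b, Unc13c) prime vesicles. Bassoon, Piccolo, ELKS2 (Erc2) and liprin alpha 3 (Ppfia3) build the matrix. All 11 genes had unadjusted p-values above 0.05. Munc13-1, from Unc13a, made up 82.9% to 84.7% of the Munc13 level per kilobase in the vehicle libraries and 85.1% to 88.8% in those labelled SP. Unc13a was at 401, 389 and 399 CPM in vehicle and 415, 471 and 400 CPM in SP libraries (log2 fold change 0.11, FDR 0.622, and 0.026 without replicate 2). Unc13c, a form best known from the cerebellum, had 19.3, 26.0 and 25.1 CPM in vehicle and 20.6, 12.5 and 20.6 CPM in SP libraries. The fitted log2 difference was -0.41 (SE 0.191, FDR 0.522) and -0.097 without replicate 2. The 9 cerebellar neuron markers summed to 198 to 233 CPM in vehicle and 198 to 268 CPM in SP libraries. Of the 8 tested markers among them, 7 had a log2 fold change above 0, and their part in the Unc13c value was not tested. In Rims3, with -0.33 (FDR 0.502), the value was -0.082 without replicate 2. In both genes SP 2 was the lowest and vehicle 2 the highest of the 6 libraries, so that the size of both values depended on replicate 2. Bsn and Pclo had log2 fold changes of 0.12 and -0.13, with FDR values of 0.685 and 0.590.

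The 8 vesicle proteins had log2 fold changes between -0.065 and 0.096 and none had an unadjusted p under 0.05. Synapsins (Syn1, Syn2, Syn3) tie vesicles into the reserve pool, and SV2 proteins are glycoproteins of the vesicle membrane that bind synaptotagmin. Synaptophysin (Syp) was at 1186, 1222 and 1168 CPM in the vehicle libraries and 1264, 1149 and 1237 CPM in those labelled SP. Sv2a was at 418, 424 and 404 CPM in vehicle and 421, 402 and 414 CPM in SP libraries (log2 fold change -0.0102), with a 95% interval of -0.14 to 0.11. Sv2c, the scarce form, was at 26.6, 33.4 and 30.2 CPM in vehicle and 29.2, 29.6 and 27.2 CPM in SP libraries (FDR 0.829). The synaptoporin gene Synpr, known from mossy fiber terminals of granule cells, had a log2 fold change of 0.096 (FDR 0.649). The 6 dentate granule cell markers, all above 0, are given above, and their part in this value was not tested.

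The 4 endocytosis genes had log2 fold changes from -0.0061 for Synj1, encoding the lipid phosphatase synaptojanin 1, to 0.11 for Dnm1. Dnm1 (ENSMUSG00000026825) was at 1116, 1096 and 1054 CPM in the vehicle libraries and 1160, 1233 and 1144 CPM in those labelled SP (FDR 0.582). Amph, the gene of amphiphysin, was also higher without overlap, with 0.11 on the log2 scale (FDR 0.519), and Sh3gl2, encoding endophilin A1, had 0.040.

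The balance within families was measured in each library as the count ratio of a paralogue with fewer counts to one with more. This ratio does not depend on scaling for library size. In 4 of 7 pairs the groups did not overlap, and this share was not computed for other gene pairs. Slc17a6, Rab3b and Syt2, which are in these pairs, were already among the genes with the lowest p-values above. Their ratios are therefore not a separate result. There were 1.14, 1.72 and 1.28 counts of Slc17a6 per 100 of Slc17a7 in the vehicle libraries and 0.761, 1.04 and 0.870 in those labelled SP, a difference of -0.62 in mean log2 ratio. There were 11.2, 10.4 and 10.9 counts of Rab3b per 100 of Rab3a in the vehicle libraries and 9.01, 6.50 and 9.54 in those labelled SP, a difference of -0.40. For Syt2 per 100 of Syt1 the values were 1.85, 1.90 and 1.70 in vehicle and 1.49, 1.33 and 1.57 in SP libraries, a difference of -0.32. For Cplx1 per 100 of Cplx2 they were 43.1, 42.3 and 41.8 in vehicle and 41.0, 34.1 and 41.4 in SP libraries, a difference of -0.13. Each of these 4 pairs had a two-sided exact permutation p of 0.1, the smallest that 3 mice against 3 can give, and an adjusted p of 0.175 over the 7 pairs. Vamp1 to Vamp2 (0.19), Sv2c to Sv2a (-0.054) and Unc13c to Unc13a (-0.53) overlapped, with exact permutation p-values of 0.2, 0.7 and 0.3 and adjusted values of 0.280, 0.700 and 0.350. Without replicate 2 the differences for Rab3b, Cplx1 and Unc13c were -0.25, -0.043 and -0.12, and those for Slc17a6 and Syt2 were -0.57 and -0.22.

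**Figure D5:**
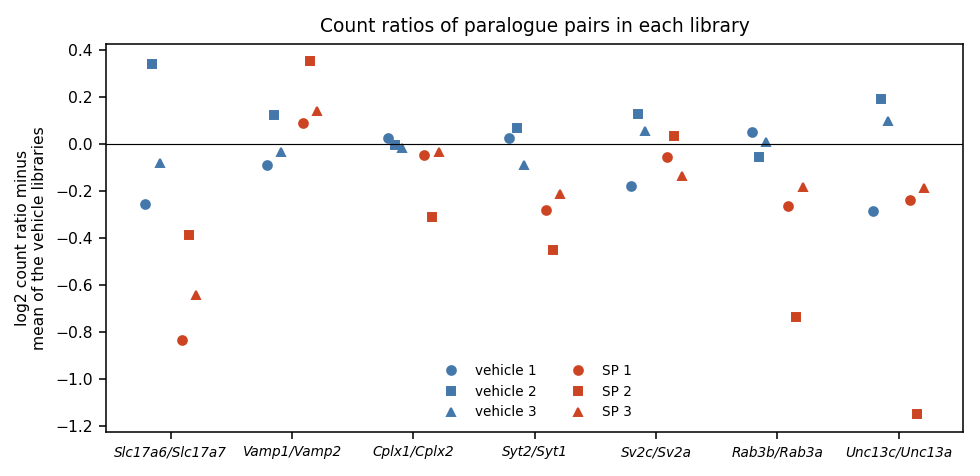
Log2 count ratio of 7 paralogue pairs in each library, minus the mean of the 3 vehicle libraries (y axis). Blue is vehicle and red SP, with replicates 1, 2 and 3 as circle, square and triangle. The libraries labelled SP lie below all vehicle libraries for Slc17a6, Cplx1, Syt2 and Rab3b relative to their partners, and SP 2 lies farthest down for Cplx1, Syt2, Rab3b and Unc13c.

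A further 88 genes of the same machinery were described beside these, of which 87 were tested and Cplx4 was too low. With edgeR 0 of them passed both thresholds, and 10 had an unadjusted p under 0.05 (11.5%, with 10.1% over all genes). Of these, 3 were lower (3.45%, with 5.59% over all genes) and 7 higher (8.05%, with 4.48% over all genes) in the libraries labelled SP. The groups did not overlap in 15 higher and 3 lower genes, where the shares over all tested genes were 9.19% and 9.03%. Their median log2 fold change was 0.031. Of the 36 tested other synaptotagmins, SNAREs and regulators, the 4 with such a p were Syt9, Stxbp2 (Munc18-2), Apba1 (Mint1) and Stx2 (syntaxin 2), with log2 fold changes of -0.40, -0.17, -0.12 and 0.21. That of Syt9 was -0.18 without replicate 2. Of the 27 other vesicle, Rab3 and active zone genes, the 5 were Prrt2, Git1, Ppfia2, Rab3ip and Rogdi, with values from 0.16 to 0.20. Without replicate 2 the values of Git1 and Ppfia2 were 0.089 and 0.11. Prrt2, whose protein binds SNAREs and synaptotagmin, was at 258 ± 5.39 CPM (SD, n = 3 mice) in vehicle and 296 ± 14.7 CPM (SD, n = 3 mice) in SP libraries, with an FDR of 0.351. Of the 24 other endocytosis genes, 22 had a log2 fold change above 0 and 2 below (8.33%, with 49.5% below over all tested genes). Bin1 alone among them had an unadjusted p under 0.05, with a log2 fold change of 0.18 (FDR 0.351). Bin1, the gene of amphiphysin 2, is also expressed by oligodendrocytes, whose 10 markers all had a log2 fold change above 0, and the part of these cells in its value was not tested.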

How the data were processed

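Hippocampal RNA of 3 SP-injected and 3 saline-injected mice was sequenced, 1 library for each mouse. The authors deposited estimated counts per gene, made with TrimGalore for trimming, STAR for alignment to GRCm38 and Salmon for quantification, without scaling to depth or length. Versions and the annotation release are not given in the sources used here. Fractional counts (9.77% of the values) were rounded.

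Counts were tested in R 4.3.3 with edgeR 4.0.16 (filterByExpr with a minimum count of 10 and minimum total of 15, TMM, glmQLFit and glmQLFTest). Replicate number entered as a block, since the study adjusted for replicates, and FDR is the Benjamini-Hochberg value over the 17069 tested genes. Genes with FDR < 0.1 and |log2FC| > 0.3 were called. The labels call the number a batch, but deviations of same-numbered mice from their group means had Pearson's r across genes of 0.0140, -0.0656 and 0.0734. Nothing says that mice were reared or processed apart, so p-values measure the spread between these samples. Fits with edgeR, limma-voom and DESeq2 were also run on simulated counts, and the outcome is not given here. Paralogue ratios were compared by exact permutation tests.

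Positions and exon lengths came from GENCODE M21 (GRCm38), and windows before gene starts from RefSeq. Salmon can divide reads between genes of similar sequence. Values are given per library for genes with an unadjusted p under 0.05, the most abundant gene per kilobase of each role, and the 7 paralogue pairs. Values of some further genes were added, among them genes that did not overlap between groups or depended on 1 replicate number. The 48 genes, the other lists and the 13 marker lists were chosen with earlier results of these data known, and so were the tests. Alternatives used limma 3.58.1 (voom), DESeq2 1.42.0, other scalings and filters, no block, a correction for GC content and length, or left out each replicate number. A count of 0 allows at most 0.109 to 0.135 CPM, which is 3 counts of a library and covers counting error only.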

Additional observations from a re-analysis of the deposited data

How the results depend on the processing

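The 12 alternatives were planned for the 48 genes, and those for the other presynaptic genes and for overlap were added after seeing the data. The number of the 48 genes past both thresholds was 0 with limma-voom, with DESeq2 and the replicate block, and in 8 other fits, 2 with no filter on low counts (Slc17a6 and Rab3b, where 1.37% of all genes passed), and 1 with DESeq2 without the block (Slc17a6, FDR 0.0996, where 0.779% of all genes passed). At an unadjusted p under 0.05, the lower genes numbered 8 with no filter, 7 with DESeq2 without the block, and 5 to 8 without replicate 1, 2 or 3. They numbered 5 with no replicate block, 4 with limma-voom, 5 with DESeq2 and the block, and 4 with the correction for GC content and length. The higher genes numbered 6 with no replicate block, 3 with no filter, 3 with limma-voom, 3 with DESeq2 and the block, 5 with DESeq2 without it, 9 with the correction for GC content and length, and 0 to 3 without a replicate number. Over all tested genes, in either direction, the shares were 11.9% with no block, 8.29% with no filter, 9.99% with limma-voom, 4.13% and 8.10% with DESeq2 with and without the block, 11.1% with the correction, and 5.93% to 11.4% without a replicate number. With both directions together, the share of the 48 genes lay above these shares in each of these fits but that without replicate 2. The cause of the changes in counts between fits was not tested. That correction moved the median of all genes to 0.029 and of the 48 genes to 0.057. Rab3b had an unadjusted p of 0.0556 with no replicate block, and Rab3c one of 0.0740 with the GC and length correction (both edgeR). For the other presynaptic genes, 1 passed both thresholds with no filter. Higher genes among them numbered 12 with no block, 4 with DESeq2 and the block, 13 with the GC and length correction and 0 to 8 without a replicate number, and lower ones 0 with DESeq2 and the block and 1 to 4 without a replicate number. Their median was 0.059 with the GC and length correction. Of the genes given by library, 4 changed sign when a replicate number was left out, all with values near zero. Syp was at -0.0031 and -0.0018 without replicates 1 and 3 (up to 0.087 without 2), Sv2a at 0.023 without replicate 2 (down to -0.036), Syt1 at -0.0040 without replicate 2 (up to 0.023 without 1), and Cplx1 at -0.024 without replicate 1 (up to 0.053). The Sv2c to Sv2a ratio was 0.013 without replicate 3, with a range of -0.14 to 0.013. Non-overlap counts were 11 higher and 4 lower with TMM, and 9 to 10 higher and 5 to 6 lower under 3 other scalings. Under those 3 the shares over all tested genes were 7.26% to 9.12% higher and 9.01% to 10.8% lower. With the block, leaving out 1 library removes the information of its partner, so each replicate number was left out whole. The 95% intervals show how large a difference 3 mice in each group leave possible.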
